A study of Caenorhabditis elegans with 4 samples.

Results

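The genes described here are the *Caenorhabditis elegans* antimicrobial peptide genes of the *cnc*, *fip*, *fipr* and *nlp-24* to *nlp-34* families, which are best known from the epidermis. They were taken by name. All rows of the count table whose locus tag carries, in the RefSeq gene table of assembly WBcel235, a symbol starting with cnc-, fip- or fipr-, or one of the symbols *nlp-24* to *nlp-34*, were kept. This gave 58 of the 21895 rows, made up of 11 *cnc*, 7 *fip*, 29 *fipr* and 11 *nlp* genes. RNA was sequenced from whole animals of the wild-type Bristol N2 strain, with 2 libraries per group. The Cyclo(Pro-Tyr) group was shaken in M9 buffer for 24 h with 0.25 mg/mL of this cyclic dipeptide of proline and tyrosine, and the DMSO group was shaken in M9 for the same 24 h with the solvent. M9 is a salt buffer without food, both groups were kept in it, and the stage is labelled only as embryos or L1 larvae.

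These genes encode small secreted peptides, many of them rich in glycine and aromatic residues. In the epidermis, several of them are switched on when a fungus such as *Drechmeria coniospora* pierces the cuticle or when the skin is wounded. The *nlp-29* gene is the usual reporter of that response and is driven by a p38 MAP kinase cascade, through TIR-1, NSY-1, SEK-1 and PMK-1, the transporter SNF-12 and the STAT-like factor STA-2. The *cnc-2* gene is driven instead by the TGF-β ligand DBL-1. Osmotic stress and loss of the furrow collagens of the cuticle also raise *nlp-29*. The name of a gene does not show where it is transcribed, and in RNA of whole animals fewer epidermal cells and less RNA per cell cannot be told apart.

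No antimicrobial peptide gene passed the test between Cyclo(Pro-Tyr) and DMSO. Of the 58 genes, 46 had enough counts to be tested, and 0 of these had an adjusted p under 0.05 by edgeR's quasi-likelihood test. Of all 19439 tested genes 2.05% did, 0.715% higher and 1.33% lower in Cyclo(Pro-Tyr). At an unadjusted p under 0.05 there were 18 of 46, against 27.3% of all tested genes, and these were 3 higher and 15 lower in Cyclo(Pro-Tyr), against 13.0% and 14.3%. At an adjusted p under 0.1 there were 9, 1 higher and 8 lower, against 13.7% of all tested genes, made up of 6.08% higher and 7.61% lower. DESeq2's Wald test called 7 of the 46, 1 higher and 6 lower, among 1789 genes in the whole table, and limma-voom called 0 among 429.

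The tested genes had a median log2 fold change of -0.11, where all tested genes had -0.0032. Log2 fold changes here are of Cyclo(Pro-Tyr) over DMSO, so a negative value is a lower level in Cyclo(Pro-Tyr). They ran from -1.17 for *fip-3* to 1.37 for *cnc-1*, and 30 of the 46 (65.2%) were below 0, against 50.3% of all tested genes. The 4 libraries split without overlap between the groups in 27 of the 46 (58.7%), against 60.5% of all tested genes. In 21 genes both Cyclo(Pro-Tyr) libraries lay below both DMSO libraries, 45.7% of those tested against 30.8% of all tested genes. In 6 genes both lay above, 13.0% against 29.6%. The other 19 overlapped between the groups.

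Single libraries changed these counts, in the set and in the whole table. The fits without Cyclo(Pro-Tyr) replicate 1 and replicate 2 tested 19728 and 19935 genes, 46 and 47 of them from the set. Those without DMSO replicate 1 and replicate 2 tested 19748 and 19914 genes, 46 of them from the set in each. With Cyclo(Pro-Tyr) replicate 1 left out, edgeR called 11 of the genes, 2 higher and 9 lower, in a fit that called 4299 genes in the whole table. With Cyclo(Pro-Tyr) replicate 2 left out, 1 was called, *cnc-4*, in a fit that called 987. Leaving out DMSO replicate 1 or DMSO replicate 2 gave 0 calls of the set, and these fits called 0 and 4 genes in the whole table. The median over the tested antimicrobial peptide genes was -0.18 when either of the Cyclo(Pro-Tyr) libraries was left out, -0.08 without DMSO replicate 1 and -0.20 without DMSO replicate 2. Library totals ran from 40240674 to 52987317 counts.

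**Figure D1:**
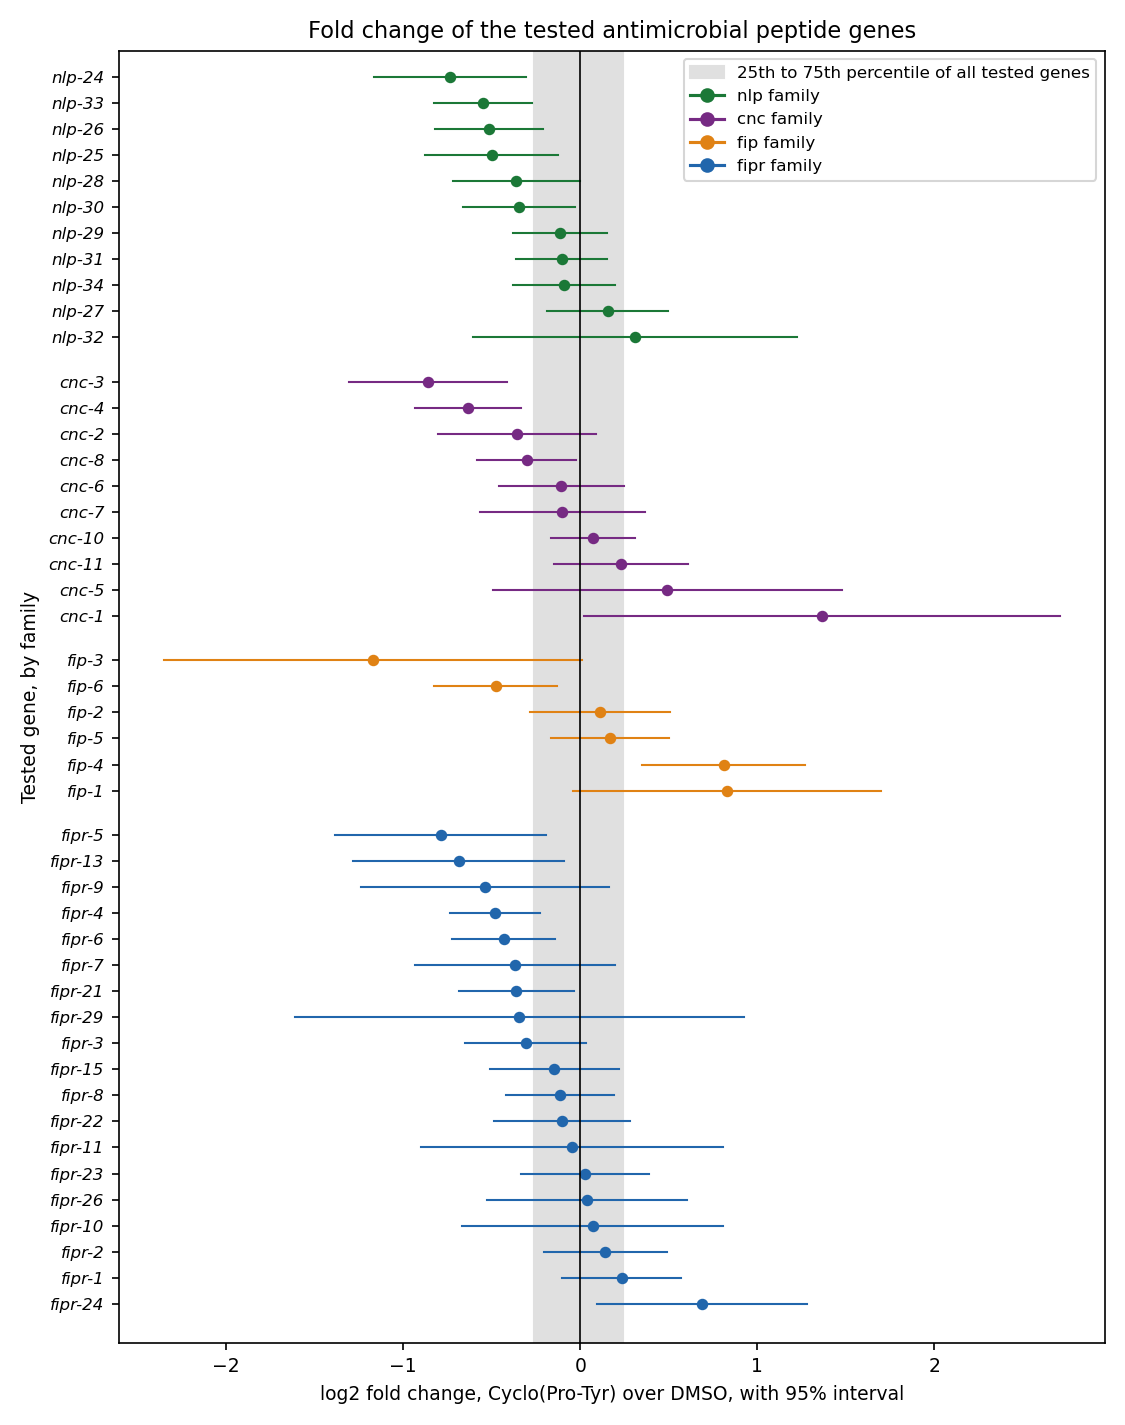
Log2 fold change of Cyclo(Pro-Tyr) over DMSO for the 46 tested genes, with the 95% interval of the edgeR fit as a line, grouped by family; the grey band is the 25th to 75th percentile of all tested genes. Of the 46 points 30 lie left of 0, and the widest intervals belong to genes of low count such as *cnc-1* and *fip-3*.

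In the plot of fold changes by family, the interval of a gene shows which sizes of difference the 4 libraries still allow. For *nlp-29*, the reporter of the fungal response, it ran from -0.38 to 0.15, so a doubling, which is 1 on this scale, lay outside it. For *cnc-1*, counted between 4 and 13 times per library, it ran from 0.02 to 2.71.

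The 12 genes that were not tested had at most 9 counts in any library. They were *cnc-9*, *fip-7*, *fipr-12*, *fipr-14*, *fipr-16*, *fipr-17*, *fipr-18*, *fipr-19*, *fipr-20*, *fipr-25*, *fipr-27* and *fipr-28*. The *fipr-25* gene had 0 counts in all 4 libraries, which allows a level of up to 0.0563 to 0.0768 CPM, the count per library size with TMM scaling, depending on the library. The *fip-7* gene had 2 counts in Cyclo(Pro-Tyr) replicate 2 and 0 in the other 3 libraries. These levels were too low for a comparison at this depth.

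At the other end, 24 genes averaged at least 10 CPM, and the whole set made up 0.1355% and 0.1307% of the counts of Cyclo(Pro-Tyr) replicates 1 and 2, against 0.1662% and 0.1472% in DMSO replicates 1 and 2. The transcripts are short, with a median exon length of 341.5 bases against 1164 bases over the 19807 genes with a length in the annotation. The ranks of genes that follow are therefore per kilobase of exon. The cut at 10 CPM, the summed levels and the choice of genes by mean CPM take no account of length. On that scale of CPM per kilobase, *nlp-24* was the highest gene of the set in Cyclo(Pro-Tyr) replicate 1 and in both DMSO libraries. In Cyclo(Pro-Tyr) replicate 2 it ranked 4, behind *fipr-2*, *fipr-1* and *nlp-29*. Its level per kilobase was 419 and 278 in Cyclo(Pro-Tyr), against 609 and 553 in DMSO. The *nlp-33* gene ranked 2 and 5 in Cyclo(Pro-Tyr) and 2 in both DMSO libraries, while *nlp-29* ranked 3 in all 4 libraries.

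**Figure D2:**
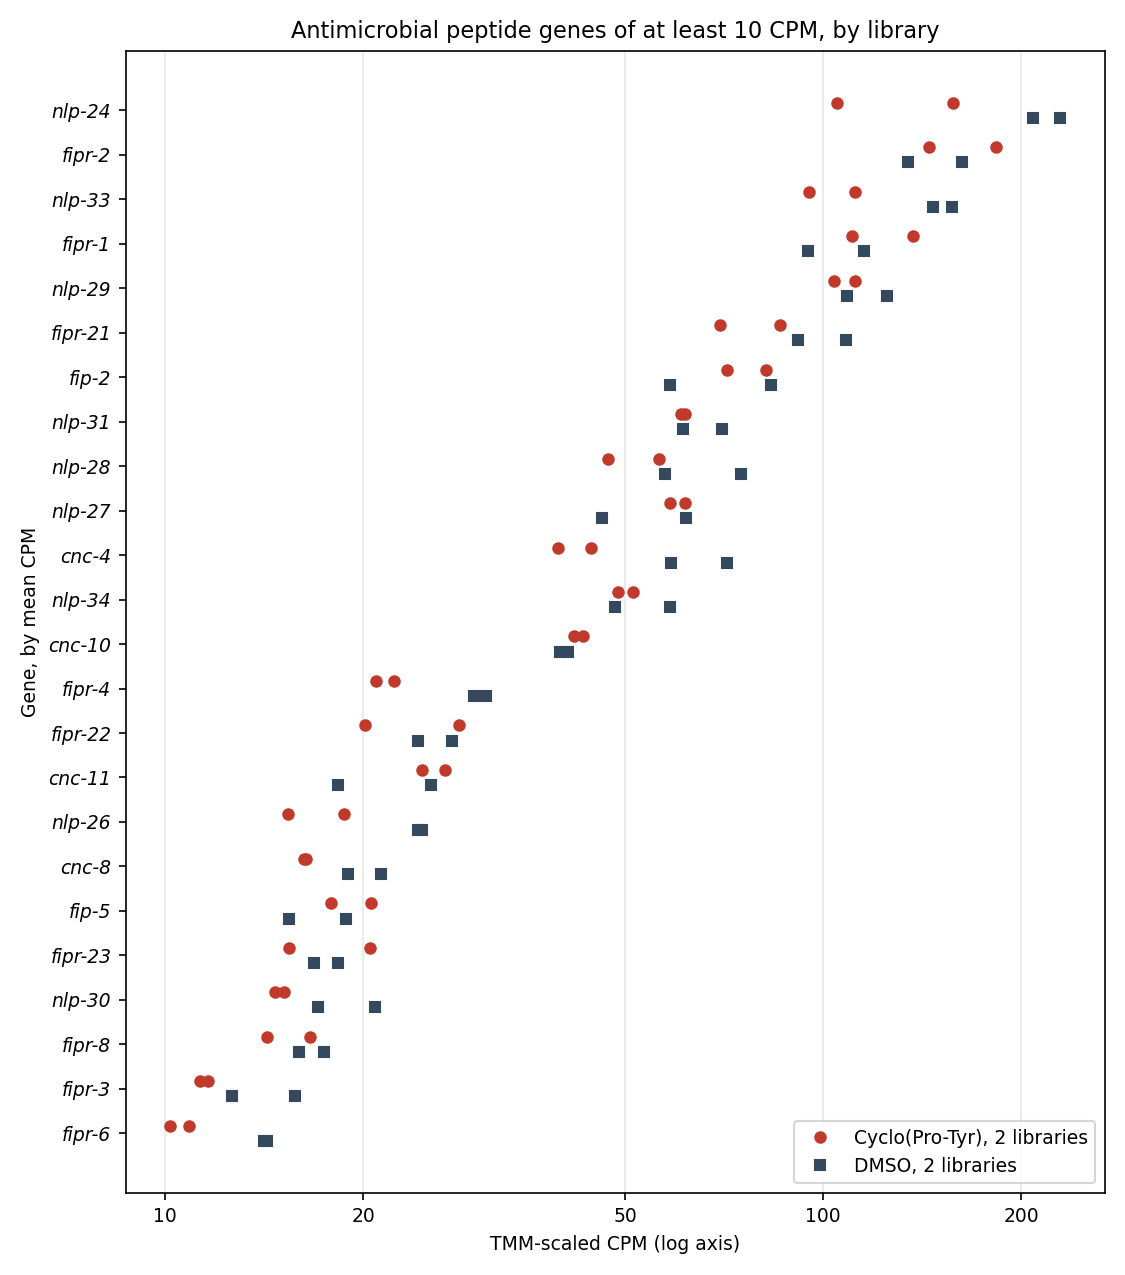
TMM-scaled CPM (log axis) in each library for the 24 antimicrobial peptide genes that averaged at least 10 CPM, with Cyclo(Pro-Tyr) as circles above DMSO as squares. The 2 circles of *nlp-24* and of *nlp-33* lie left of their squares without overlap, whereas those of *nlp-29*, *nlp-31* and *nlp-34* overlap them.

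The *nlp* genes encode neuropeptide-like proteins, most of them with repeats that yield YGGW-type amidated peptides. Of the 11, all were tested, 0 were called, and 9 had a log2 fold change below 0. The family median was -0.35, and 6 genes were lower at an unadjusted p under 0.05, where 14.3% of all tested genes were. DESeq2 called 3 and limma-voom 0, against 1789 and 429 of all 19439 tested genes. In 6 of the 11 both Cyclo(Pro-Tyr) libraries lay below both DMSO libraries, as in 30.8% of all tested genes, and in 0 above, as in 29.6%.

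The *nlp-24* gene, whose product has also been described as an opioid-like peptide acting on feeding in starved worms, had 158 and 105 CPM in Cyclo(Pro-Tyr) replicates 1 and 2. It had 229 and 208 CPM in DMSO replicates 1 and 2. Both treated libraries were low and replicate 2 was the lowest, with a log2 fold change of -0.74 ± 0.19 (SE) (edgeR adjusted p 0.0694). With Cyclo(Pro-Tyr) replicate 1 left out the log2 fold change was -1.06, and with replicate 2 of that group left out it was -0.47. Its exons overlap 24 bases of *glb-15* on the opposite strand, and the use of strand in the counting is not given in the sources used here.

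The *nlp-33* gene had 112 and 95.3 CPM in Cyclo(Pro-Tyr), against 157 and 147 CPM in DMSO. The groups did not overlap, and the log2 fold change was -0.55 ± 0.12 with an edgeR adjusted p of 0.0561. The neighbours *nlp-25* and *nlp-26* were alike. In *nlp-26* the values were 18.7 and 15.4 CPM in Cyclo(Pro-Tyr), against 24.6 and 24.2 CPM in DMSO, with a log2 fold change of -0.52 ± 0.13 (edgeR adjusted p 0.0699). In *nlp-25* they were 4.52 and 5.07 CPM in Cyclo(Pro-Tyr), against 7.04 and 6.49 CPM in DMSO, a log2 fold change of -0.50.

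Of the named *nlp* genes, *nlp-29*, *nlp-31* and *nlp-34* overlapped between the groups. The *nlp-29* gene had 112 and 104 CPM in Cyclo(Pro-Tyr), against 125 and 109 CPM in DMSO, with a log2 fold change of -0.11 ± 0.12 (edgeR adjusted p 0.556). The *nlp-31* gene, whose peptide has antifungal activity in vitro, had 60.7 and 61.7 CPM in Cyclo(Pro-Tyr), against 70.3 and 61.3 CPM in DMSO, a log2 fold change of -0.10. The *nlp-34* gene had 48.7 and 51.4 CPM in Cyclo(Pro-Tyr), against 58.5 and 48.2 CPM in DMSO. Its log2 fold change was -0.09 and turned to 0.06 without DMSO replicate 1. In each of the 3 genes DMSO replicate 1 was the highest library, and the 95% intervals lay between -0.38 and 0.19.

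Summed over the family, the *nlp* genes gave 635 and 572 CPM in Cyclo(Pro-Tyr), against 830 and 725 CPM in DMSO. Without *nlp-24* and *nlp-33*, the remaining 9 genes gave 365 and 371 CPM in Cyclo(Pro-Tyr), against 444 and 370 CPM in DMSO, and the groups overlapped. The leaving out of these 2 genes was chosen after their values were seen.

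**Figure D3:**
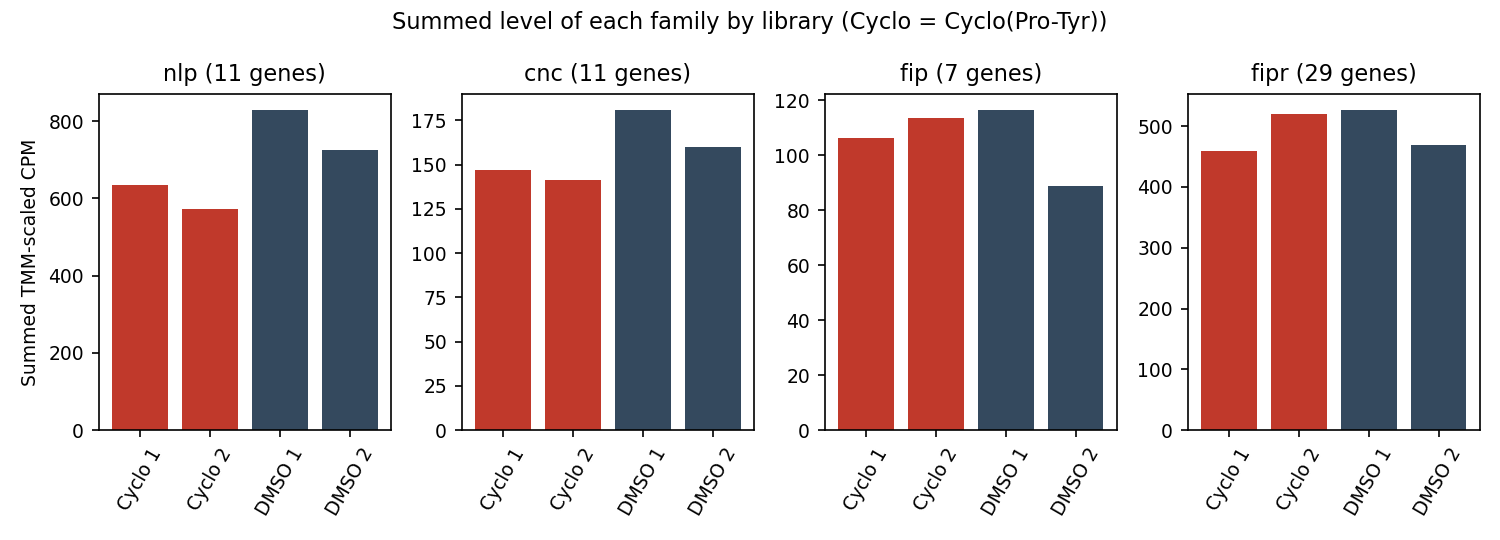
Summed TMM-scaled CPM of all genes of each family in each library, with Cyclo(Pro-Tyr) bars left of DMSO bars and axes starting at 0. The *nlp* and *cnc* sums are lower in both Cyclo(Pro-Tyr) libraries than in either DMSO library, and the *fip* and *fipr* sums overlap.

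The *cnc* genes encode caenacins, and several are induced in the epidermis by the same fungus. Of 11 genes, 10 were tested and 0 called, and 6 had a log2 fold change below 0, with a median of -0.11. At an unadjusted p under 0.05 there were 3 lower and 1 higher, against 14.3% and 13.0% of all tested genes. DESeq2 called 2 and limma-voom 0, against 1789 and 429 of all 19439 tested genes. Their sum was 147 and 141 CPM in Cyclo(Pro-Tyr), against 181 and 160 CPM in DMSO, as the plot of summed levels shows. The *cnc-4* gene had the smallest p of all antimicrobial peptide genes. Its values were 44.4 and 39.5 CPM in Cyclo(Pro-Tyr), against 71.4 and 58.8 CPM in DMSO, with a log2 fold change of -0.63 ± 0.13 (edgeR adjusted p 0.0537). The groups did not overlap. With all 4 libraries, upper-quartile scaling, DESeq2's test and the robust edgeR fit called *cnc-4*. So did a crossed pairing of the libraries, added after seeing the data. It was not called with DESeq2 size factors, total counts, no filter, the filter of 5 CPM, limma-voom or the replicate number as a block. Leaving out 1 library gave *cnc-4* log2 fold changes between -0.77 and -0.49.

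Its neighbour *cnc-3* had 5.60 and 3.97 CPM in Cyclo(Pro-Tyr), against 9.10 and 8.36 CPM in DMSO. The log2 fold change of *cnc-3* was -0.86 ± 0.19 with an edgeR adjusted p of 0.0591. Leaving out Cyclo(Pro-Tyr) replicate 1 gave -1.14, and leaving out replicate 2 of that group gave -0.64. The *cnc-2* gene, the known target of DBL-1, had 3.76 and 3.38 CPM in Cyclo(Pro-Tyr), against 5.08 and 4.07 CPM in DMSO. These did not overlap, but the log2 fold change of -0.36 ± 0.19 had an edgeR adjusted p of 0.269 and a 95% interval from -0.81 to 0.09. The *cnc-10* and *cnc-11* genes, both above 10 CPM, had log2 fold changes of 0.07 and 0.23.

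The *fip* genes were named as fungus-induced proteins. Of 7 genes, 6 were tested and 0 called, 4 above 0 and 2 below, with a median log2 fold change of 0.14. At an unadjusted p under 0.05 there were 1 lower and 1 higher, against 14.3% and 13.0% of all tested genes. DESeq2 called 1 and limma-voom 0, against 1789 and 429 of all 19439 tested genes. The *fip-4* gene was the only one of the 46 with a positive fold change at an adjusted p under 0.1. It had 4.86 and 5.94 CPM in Cyclo(Pro-Tyr), against 2.78 and 3.37 CPM in DMSO, with a log2 fold change of 0.81 ± 0.20 (edgeR adjusted p 0.0674). It lies inside *smk-1*, a regulator of *daf-16* dependent longevity, on the opposite strand, and 192 of its 288 exonic bases overlap *smk-1* exons.

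The *smk-1* gene itself had 344 and 337 CPM in Cyclo(Pro-Tyr), against 244 and 294 CPM in DMSO, a log2 fold change of 0.34 (edgeR adjusted p 0.146). Reads of *fip-4* and *smk-1* cannot be told apart without strand, so the count of *fip-4* is uncertain. The *fip-1* gene, which lies inside *twk-7* on the opposite strand without sharing exonic bases, had 0.60 and 0.69 CPM in Cyclo(Pro-Tyr), against 0.31 and 0.42 CPM in DMSO. This was 32 and 27 counts in Cyclo(Pro-Tyr), against 16 and 18 counts in DMSO, a log2 fold change of 0.83 ± 0.37 (edgeR adjusted p 0.199). In the other direction, *fip-6* had 8.45 and 6.97 CPM in Cyclo(Pro-Tyr), against 10.8 and 10.8 CPM in DMSO, with a log2 fold change of -0.48 (edgeR adjusted p 0.0994). The most abundant *fip* gene, *fip-2*, had 71.4 and 81.9 CPM in Cyclo(Pro-Tyr), against 83.5 and 58.5 CPM in DMSO, and overlapped. Its log2 fold change of 0.11 turned to -0.13 without DMSO replicate 2.

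The *fipr* genes are relatives of the *fip* genes and form the largest family of the set. Of 29 genes, 19 were tested and 0 called, 6 above 0 and 13 below, with a median log2 fold change of -0.15. At an unadjusted p under 0.05 there were 5 lower and 1 higher, against 14.3% and 13.0% of all tested genes. DESeq2 called 1 and limma-voom 0, against 1789 and 429 of all 19439 tested genes. The 2 most abundant, *fipr-2* and *fipr-1*, are neighbours on chromosome V, each within a gene on the opposite strand. The *fipr-2* gene had 145 and 183 CPM in Cyclo(Pro-Tyr), against 163 and 135 CPM in DMSO. Its log2 fold change of 0.14 ± 0.15 turned to -0.03 without Cyclo(Pro-Tyr) replicate 2. In *fipr-1* the values were 111 and 137 CPM in Cyclo(Pro-Tyr), against 115.5 and 94.997 CPM in DMSO, a log2 fold change of 0.23 ± 0.14. Both genes overlapped between the groups, with edgeR adjusted p of 0.579 and 0.331.

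The *fipr-4* and *fipr-6* genes differed little between the libraries of a group. The *fipr-4* values were 22.2 and 20.9 CPM in Cyclo(Pro-Tyr), against 29.5 and 30.7 CPM in DMSO, with a log2 fold change of -0.48 ± 0.11 (edgeR adjusted p 0.0595). The *fipr-6* values were 10.2 and 10.9 CPM in Cyclo(Pro-Tyr), against 14.1 and 14.3 CPM in DMSO, with a log2 fold change of -0.43 ± 0.13 (edgeR adjusted p 0.0864). On the X chromosome, *fipr-21* had 86.1 and 69.7 CPM in Cyclo(Pro-Tyr), against 108 and 91.7 CPM in DMSO, with a log2 fold change of -0.36 ± 0.14 (edgeR adjusted p 0.148). The only *fipr* gene with both Cyclo(Pro-Tyr) libraries above both DMSO libraries among those tested was *fipr-24*, at 3.06 and 4.76 CPM in Cyclo(Pro-Tyr), against 2.55 and 2.24 CPM in DMSO.

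Most of these genes stand beside relatives. Taking genes with at most 5 protein-coding genes between them as neighbours, 42 of the 58 fell into 13 groups of neighbours and 16 stood alone. The largest held 6 genes each, all on chromosome V, and the plot of fold changes along them shows different patterns. The *nlp* group (*nlp-34*, *nlp-31*, *nlp-30*, *nlp-29*, *nlp-28* and *nlp-27*) ran between -0.36 and 0.15, with 5 of 6 below 0 and a median of -0.11. The exception, *nlp-27* at 0.15, turned to -0.04 without DMSO replicate 2. The groups of libraries did not overlap only in *nlp-28* and *nlp-30*, 2 of the 6, where 60.5% of all tested genes did not overlap. The log2 fold changes of *nlp-28* and *nlp-30* were -0.36 and -0.35. The *fipr* group (*fipr-5*, *fipr-9*, *fipr-4*, *fipr-7*, *fipr-6* and *fipr-8*) had 6 of 6 below 0, from -0.79 to -0.12, with a median of -0.46. Its summed level was 52.0 and 52.9 CPM in Cyclo(Pro-Tyr), against 67.3 and 68.8 CPM in DMSO.

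The *cnc* group differed within itself. Its abundant *cnc-4* and the nearby *cnc-3* and *cnc-2* had log2 fold changes of -0.63, -0.86 and -0.36, while *cnc-11*, *cnc-1* and *cnc-5* had 0.23, 1.37 and 0.49. The counts of *cnc-1* were 13 and 10 in Cyclo(Pro-Tyr), against 5 and 4 in DMSO, and those of *cnc-5* were 19 and 18 in Cyclo(Pro-Tyr), against 14 and 13 in DMSO. Neighbouring members can be close copies, and how the counting divided reads between them is not given in the sources used here. No test compared the groups of neighbours with each other.

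**Figure D4:**
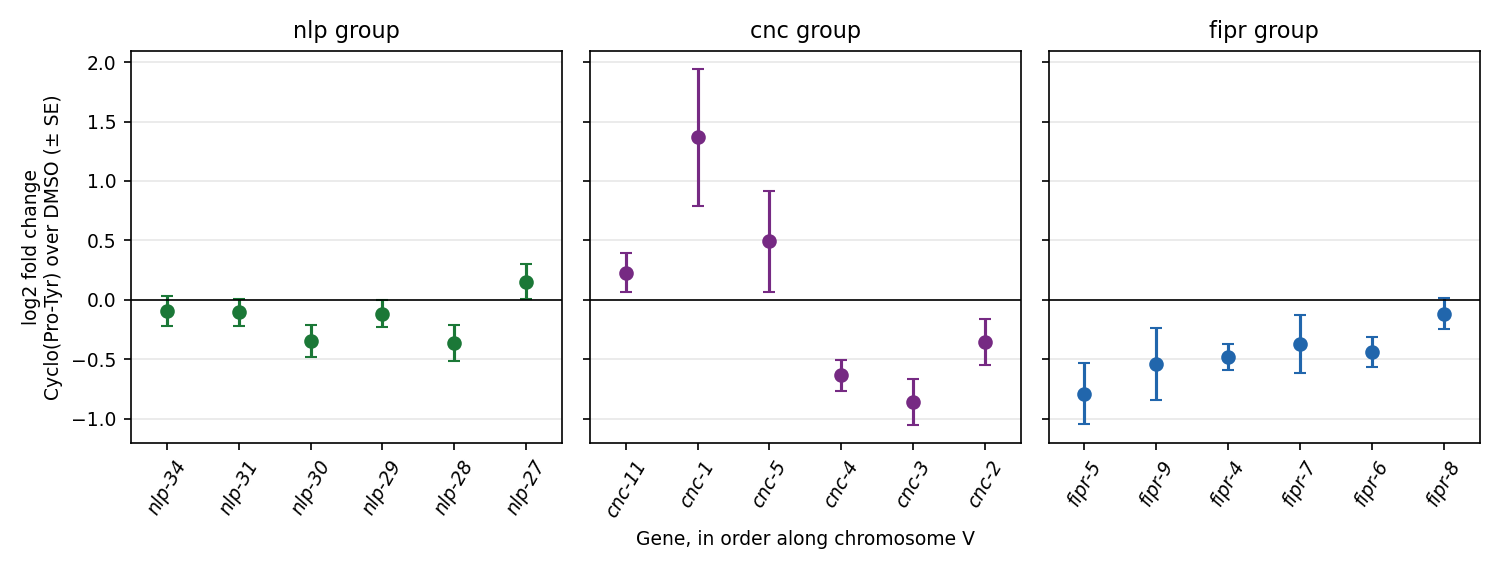
Log2 fold change of Cyclo(Pro-Tyr) over DMSO, with the standard error of the edgeR fit, for the genes of the 3 largest groups of neighbours in their order along chromosome V. All 6 *fipr* genes lie below 0, the *nlp* genes lie between -0.36 and 0.15, and the *cnc* genes lie on both sides.

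Genes of the pathways that signal to these peptides were at levels that could be tested. Of 16 genes of the p38 pathway, all were tested and edgeR called 1, which was higher, where 2.05% of all tested genes were called. The list median was 0.16. At an unadjusted p under 0.05 there were 6 higher and 0 lower, against 13.0% and 14.3% of all tested genes. DESeq2 called 2 and limma-voom 1, all higher, against 1789 and 429 of all 19439 tested genes in both directions. The list was not split into genes that promote and genes that inhibit the signal. The MAP kinase kinase kinase gene *nsy-1* rose to 288 and 323 CPM in Cyclo(Pro-Tyr), against 182 and 206 CPM in DMSO, with a log2 fold change of 0.65 ± 0.12 (edgeR adjusted p 0.0484). Its exons overlap *wdr-83* on the opposite strand by 56 bases. The kinase genes *sek-1* and *pmk-1* had log2 fold changes of 0.29 and 0.10, and the adaptor *tir-1* had -0.29. The factor *sta-2* had 0.17, the transporter *snf-12* had 0.26, and the receptor *dcar-1*, which senses a tyrosine derivative, had 0.17, all without a call by edgeR.

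Of 10 genes of the DBL-1 pathway, 9 were in the table and edgeR called 1, which was higher, against 2.05% of all tested genes. Of the 9, 6 were higher and 0 lower at an unadjusted p under 0.05, against 13.0% and 14.3% of all tested genes. DESeq2 called 4 and limma-voom 1, all higher, against 1789 and 429 of all 19439 tested genes in both directions. The list median was 0.29, against -0.0032 over all tested genes. In all 9, both Cyclo(Pro-Tyr) libraries lay above both DMSO libraries, as in 29.6% of all tested genes, including the ligand gene *dbl-1* with a log2 fold change of 0.23 and the receptor genes *daf-4* and *sma-6* with 0.42 and 0.28. The glypican gene *lon-2*, an inhibitor of this signalling, had 0.26 without a call by edgeR. The *sma-10* gene, a membrane protein that promotes this signalling, rose to 135 and 167 CPM in Cyclo(Pro-Tyr), against 93.7 and 90.3 CPM in DMSO, with a log2 fold change of 0.72 ± 0.13 (edgeR adjusted p 0.0458). The call of *sma-10* and that of *nsy-1* did not survive scaling by total counts (edgeR adjusted p 0.0511 for *sma-10* and 0.0569 for *nsy-1*). Each of the 6 calls among the list genes, these 2 included, was lost when DMSO replicate 1 or DMSO replicate 2 was left out and with the filter of 5 CPM, except *nos-2*, which that filter left untested. With the replicate number as a block 1 of the 6 was called, *spp-23*.

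**Figure D5:**
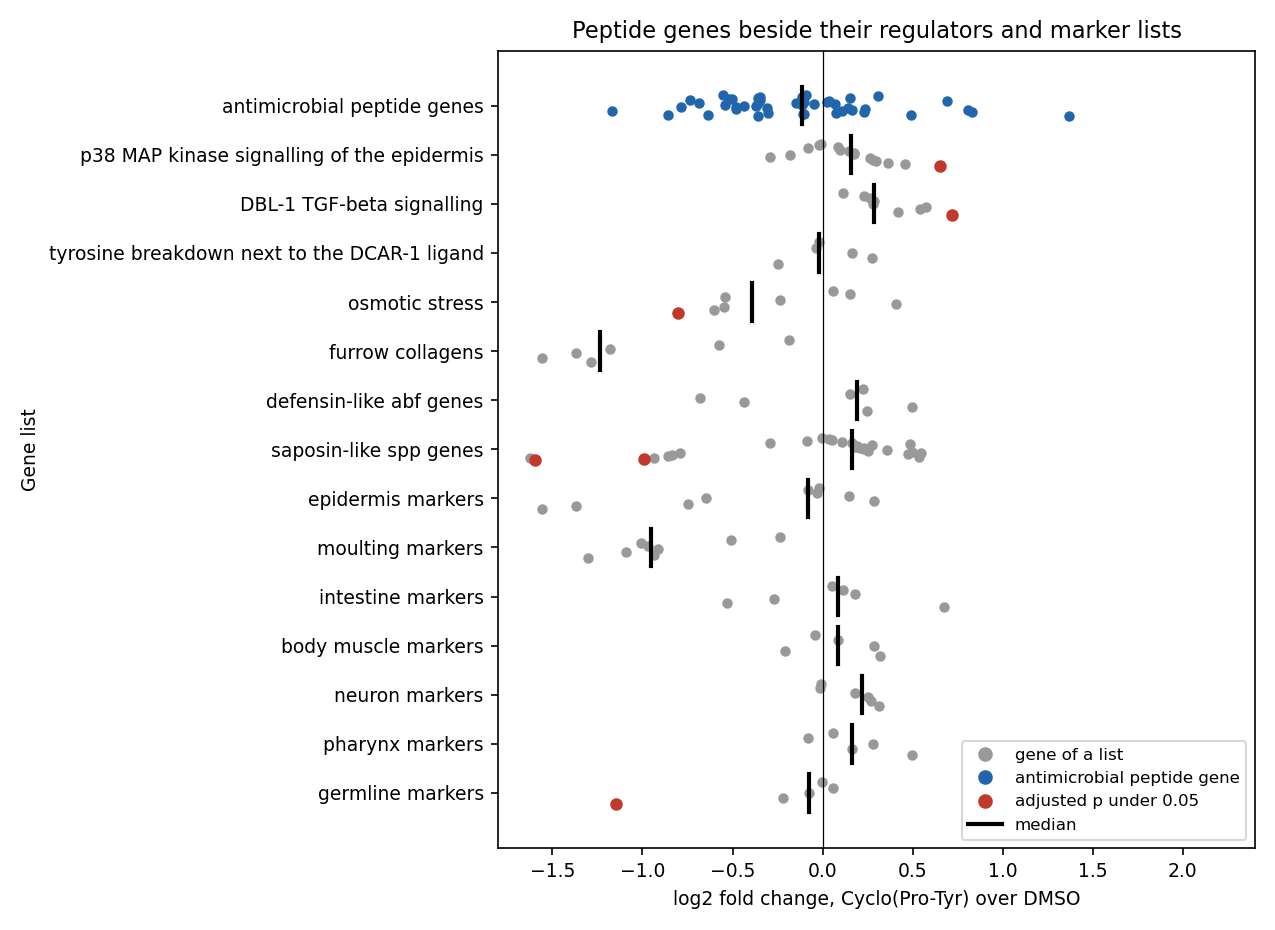
Log2 fold change of Cyclo(Pro-Tyr) over DMSO for each tested gene of the peptide set and of 14 lists of regulators and markers, with list medians as black bars and genes past an adjusted p of 0.05 in red. The median of the furrow collagens is -1.23 and that of the moulting markers -0.95, and no peptide gene is red.

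The plot of regulators and markers sets the peptides beside genes tied to conditions known to move them and beside tissue and moulting markers. It shows RNA of these genes and not the conditions themselves. The DCAR-1 ligand, hydroxyphenyllactic acid, arises from tyrosine. Of 5 tyrosine breakdown genes 0 were called by edgeR, DESeq2 or limma-voom, and 0 had an unadjusted p under 0.05. The dioxygenase gene *hpd-1* had 734 and 678 CPM in Cyclo(Pro-Tyr), against 829 and 845 CPM in DMSO, with an edgeR adjusted p of 0.278. The 8 osmotic stress genes have different parts in that response, so their counts give no single direction of it. Of these, edgeR called 1, which was lower, where 2.05% of all tested genes were called. DESeq2 called 2, both lower, and limma-voom called 1, against 1789 and 429 of all 19439 tested genes in both directions. At an unadjusted p under 0.05 there were 3 lower and 1 higher, against 14.3% and 13.0% of all tested genes. The glycerol-3-phosphate dehydrogenase gene *gpdh-2* fell to 149 and 124 CPM in Cyclo(Pro-Tyr), against 240.1 and 237 CPM in DMSO, with a log2 fold change of -0.80 ± 0.12 (edgeR adjusted p 0.0363). The osmotically induced *gpdh-1* had 10.96 and 10.6 CPM in Cyclo(Pro-Tyr), against 17.9 and 14.8 CPM in DMSO, a log2 fold change of -0.60 (edgeR adjusted p 0.0627).

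Of the 6 furrow collagens 0 were called by edgeR, DESeq2 or limma-voom. At an unadjusted p under 0.05 there were 4 lower, as were 14.3% of all tested genes. All 6 had both Cyclo(Pro-Tyr) libraries below both DMSO libraries, as had 30.8% of all tested genes. Their summed level was 207 and 83.1 CPM in Cyclo(Pro-Tyr) replicates 1 and 2, against 320.4 and 401 CPM in DMSO replicates 1 and 2. In *dpy-10* the values were 72.5 and 31.5 CPM in Cyclo(Pro-Tyr), against 113 and 141 CPM in DMSO, with a log2 fold change of -1.29 ± 0.33 (edgeR adjusted p 0.0702). Leaving out Cyclo(Pro-Tyr) replicate 1 gave *dpy-10* -2.01, and leaving out replicate 2 of that group gave -0.81. Of 8 moulting markers 0 were called by edgeR, DESeq2 or limma-voom. Of these 8, 7 were lower at an unadjusted p under 0.05, as were 14.3% of all tested genes. Their sum was 599.8 and 259 CPM in Cyclo(Pro-Tyr), against 712 and 1025.5 CPM in DMSO, so Cyclo(Pro-Tyr) replicate 2 was the lowest library. In *mlt-10* the values were 53.7 and 21.98 CPM in Cyclo(Pro-Tyr), against 79.3 and 108 CPM in DMSO.

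Among the antimicrobial peptide genes above 10 CPM, *nlp-24* had the largest drop between the treated libraries, with a log2 ratio of replicate 2 to replicate 1 of -0.59. Over the 46 tested genes the median of that log2 ratio was 0.06, and it was -1.14 over the moulting markers. Between the DMSO libraries the log2 ratio of replicate 2 to replicate 1 was -0.14 for *nlp-24*. The median there was -0.13 over the 46 genes and 0.51 over the moulting markers. The part of moulting or stage in the peptide values was not tested. Of 9 epidermis markers 0 were called by edgeR, DESeq2 or limma-voom, and the median log2 fold change was -0.08. At an unadjusted p under 0.05 there were 3 lower and 0 higher, against 14.3% and 13.0% of all tested genes. Of the 9, 7 were below 0. In 4 both Cyclo(Pro-Tyr) libraries lay below both DMSO libraries, as in 30.8% of all tested genes, and in 2 above, as in 29.6%. Their summed level was 625 and 300 CPM in Cyclo(Pro-Tyr), against 923 and 1093.7 CPM in DMSO. All 9 had counts in all 4 libraries. The epidermal factors *lin-26*, *elt-1* and *elt-3* had log2 fold changes of -0.02, -0.03 and 0.14. The cuticle collagen *sqt-3* had 382 and 126 CPM in Cyclo(Pro-Tyr), against 676 and 818 CPM in DMSO, a log2 fold change of -1.56. Over the 9 markers the log2 fold changes ran from -1.56 to 0.29, with a 25th percentile of -0.75. The other markers of this list, the factor *nhr-25* among them, are given here only through these counts, sum and range.

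Markers of other tissues had medians of 0.08 in intestine, 0.09 in body muscle, 0.22 in neurons, 0.16 in pharynx and -0.08 in the germ line. The only call among these was *nos-2*, a Nanos gene of the germ line, which fell to 1.82 and 1.90 CPM in Cyclo(Pro-Tyr), against 3.93 and 4.32 CPM in DMSO, a log2 fold change of -1.15 ± 0.20 (edgeR adjusted p 0.0434). It overlaps *him-14* on the opposite strand by 154 bases. The genes of smallest p in the other lists were *ges-1*, *unc-15*, *unc-31* and *myo-1*, with log2 fold changes of 0.67, 0.32, 0.31 and 0.50 and edgeR adjusted p from 0.0668 to 0.294. The lists other than the germ line had 0 calls by edgeR. At an unadjusted p under 0.05 there were 1 higher and 2 lower in intestine, 1 higher each in neurons and pharynx and 0 in muscle. Of all tested genes 13.0% were higher and 14.3% lower at that threshold. DESeq2 called 2 intestine markers, *ges-1* among them, and 1 pharynx marker, against 1789 of all 19439 tested genes. In summed CPM, the intestine markers overlapped between the groups and the body muscle, neuron and pharynx markers were higher in both Cyclo(Pro-Tyr) libraries than in either DMSO library. The part of these tissues in the peptide values was not tested.

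Among antimicrobial families outside the set, *abf* and *spp* genes were examined. Of 6 defensin-like *abf* genes 0 were called by edgeR, DESeq2 or limma-voom, and 0 had an unadjusted p under 0.05, with *abf-6* at 85.6 and 108 CPM in Cyclo(Pro-Tyr), against 87.0 and 76.1 CPM in DMSO. Of 27 tested saposin-like *spp* genes, edgeR called 2, both lower, where 1.33% of all tested genes were called lower. There were 11 at an unadjusted p under 0.05, 4 higher and 7 lower, against 13.0% and 14.3% of all tested genes. DESeq2 called 2 and limma-voom 1, against 1789 and 429 of all 19439 tested genes. The list median was 0.16. The *spp-23* gene fell to 4.98 and 3.30 CPM in Cyclo(Pro-Tyr), against 14.7 and 10.6 CPM in DMSO, with a log2 fold change of -1.60 ± 0.24 (edgeR adjusted p 0.0337). The *spp-4* gene fell to 2.84 and 2.82 CPM in Cyclo(Pro-Tyr), against 6.26 and 4.97 CPM in DMSO, with a log2 fold change of -0.99 ± 0.19 (edgeR adjusted p 0.0493). The call of *spp-4* did not survive scaling by total counts (edgeR adjusted p 0.0543) or limma-voom (adjusted p 0.0517).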

How the data were processed

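The authors deposited raw counts, whole numbers of reads per gene with 1 column per library and no normalisation. Per the submitters' processing notes Bowtie2 and SAMtools were used, and the sources used here give no counting tool, strand setting, build or annotation. Per the labels' protocols the libraries came from a stranded total RNA kit and single-end reads. Columns were matched to libraries by treatment and replicate number from the sample titles. The treatment label of the second Cyclo(Pro-Tyr) library names replicate 1, and its title was followed. Nothing in the labels says that replicates came from separate cultures, so p-values measure only the spread between these libraries, which may be technical. Counts of every pair of libraries differed by more than sampling noise.

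Symbols came from RefSeq WBcel235 by locus tag (21890 of 21895 rows, and all 58 genes of the set). Exon lengths and overlaps came from the Ensembl annotation of WBcel235 and served as checks, so no coordinates are given. No exonic overlap on the opposite strand was found for the genes of the set other than 6 (*fip-2*, *fip-4*, *fipr-3*, *fipr-15*, *nlp-24* and *nlp-26*), and 6 lie inside another gene.

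All genes were tested together with edgeR 4.0.16 in R 4.3.3 (quasi-likelihood test, TMM, filterByExpr with default settings, which kept 19439 and left out 2456 genes). Benjamini-Hochberg adjustment was over all tested genes with a threshold of 0.05, and only rows of the set and its lists are shown. One count equalled 0.0188 to 0.0256 CPM. Limits from a count of 0 use 3 counts and cover counting error only. The standard error is the fold change divided by the square root of F, and intervals are at 95%. The fit was tested on simulated data. DESeq2 1.42.0 and limma 3.58.1 were alternatives, beside other scalings and filters, a block and leaving out each library. Figures used matplotlib 3.10.9.

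The genes named are those past the threshold, the 8 smallest p, the 6 highest mean CPM, known reporters, and per list those called or of smallest p. Others named alongside fall outside this rule and were chosen after their values were seen. They are neighbours, genes at the ends of a range and further genes of the lists, such as *sek-1*, *gpdh-1* and *lin-26*. The set, the lists and the rule were chosen with earlier results of these data known.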

Additional observations from a re-analysis of the deposited data

How the results depend on the processing

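Against 0 of 46 antimicrobial peptide genes called in the report, upper-quartile scaling called 3 (0 higher, 3 lower), DESeq2's Wald test 7 and the robust edgeR fit 1, while DESeq2 size factors, total counts, no filter, limma-voom and the filter of 5 CPM in 2 libraries called 0. DESeq2 left the adjusted p of 7 of the 46 undefined. Leaving out 1 library gave 0 to 11 calls and a median log2 fold change of the set between -0.198 and -0.082. Over the scalings the median over the whole table ran from -0.038 to 0.026. The cause was not tested.

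The calls over all genes, 398 in the report, were 215 with total counts, 842 with upper-quartile scaling, 0 with the filter of 5 CPM in 2 libraries and 1789 with DESeq2's test, and 0 to 4299 without 1 library. The list genes called, 6 in the report, were 3, 6, 0 and 14 under the same settings and 0 to 38 without 1 library. In fits without 1 library the lone library is assumed to vary like the other group. An adjusted p under 0.1, chosen after seeing the data, gave 2660 genes in all and 9 of the set.

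Same-numbered libraries shared only a number, with a correlation of their deviations of -0.20 over 19439 genes. The replicate block called 221 genes, 0 of the set and 1 list gene. The crossed pairing, added after seeing the data, called 4581, 12 and 47. Of the 16 genes of the set and 15 list genes named by the rule, 2 turned direction, each without 1 library: *nlp-34* at 0.057 (edgeR adjusted p 0.852, with -0.227 to 0.057 over the libraries) and *fipr-2* at -0.034 (edgeR adjusted p 0.942, with -0.034 to 0.301 over the libraries). Of the other genes of the set named in the text, *fip-2* turned to -0.13 and *nlp-27* to -0.04 without DMSO replicate 2. At most 9 counts limited 12 genes of the set.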
